A study of Mus musculus with 7 samples.

Results

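The 33 genes described here are Atf4 and genes of the integrated stress response with those of amino acid synthesis and transport. They were taken by gene symbol from the deposited table. The members were chosen with earlier results of these data known. Shares of members set beside all genes may therefore follow in part from that choice. All 33 symbols were found among its 29955 gene rows, each once, and all 33 passed a filter of a mean of at least 10 normalized reads over the libraries, as did 16900 genes in all. RNA was sequenced from mouse embryonic fibroblasts (MEFs) of the C57BL/6 strain. Every group lacked p53: 2 libraries also carried the knock-in C462A, an alanine in place of a cysteine of Mdm2 (p53KO Mdm2(C462A) KI, here Mdm2(C462A) KI), 2 also lacked Mdm2 (p53Mdm2 KO) and 3 lacked p53 alone (p53 KO). The cells were grown in serum-containing medium. The labels name no treatment and give neither embryo age, the knockout alleles nor whether replicates were separate embryos. P-values therefore measure only the spread between these libraries, which may be technical.

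The integrated stress response starts when a kinase that senses amino acid shortage, unfolded protein in the endoplasmic reticulum (ER), haem shortage or double-stranded RNA phosphorylates the translation factor eIF2. General translation slows while Atf4 mRNA is translated more, and Atf4 protein, paired with C/EBP family members, activates genes that make and import amino acids. Fibroblasts use this response when amino acids run short or protein folding in the ER is overloaded. Mdm2 is best known as the ubiquitin ligase of p53, and the substituted cysteine belongs to its zinc-binding RING domain.

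Atf4 acts through a composite C/EBP-ATF element, so the letters TGATGNAA (N is any base) were searched on both strands of RefSeq promoter windows on build GRCm38.p6. Each window held 250 bases before and 50 after a transcript start. Of the 33 members, 29 had a window, and 10 of these held the letters (34.5% of 29), against 4.51% of 27025 genes with a window. Cth, Slc7a5, Slc7a3 and Slc1a5 had no window. The stricter TGATGCAA, which lies within TGATGNAA, was in 8 of 29 members (27.6%), against 1.03% of genes. The cyclic AMP element TGACGTCA was in 0 of 29 members, against 2.03% of genes. A match describes letters in the window and not a bound site. The members were chosen as Atf4 targets and amino acid genes, so their larger share of TGATGNAA may follow from that choice. With 29 members, the 0 for TGACGTCA cannot be told apart from the 2.03% of all genes. The 10 genes were Atf3, Trib3, Chac1, Nupr1, Asns, Pycr1, Slc7a11, Slc1a4, Fgf21 and Vldlr, and Slc7a11 held the letters at 2 places. Shown are 60 bases around the match in the 6 of them with the smallest unadjusted p between Mdm2(C462A) KI and p53 KO, since these carry both the letters and the larger differences described next. Each is written 5′ to 3′ on the gene's strand, with the match in capitals.
Atf3 (chr1:191183410-191183469, minus strand): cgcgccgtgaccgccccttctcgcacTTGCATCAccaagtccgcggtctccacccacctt
Fgf21 (chr7:45615596-45615655, minus strand): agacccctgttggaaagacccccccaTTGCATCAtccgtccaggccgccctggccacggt
Trib3 (chr2:152344031-152344090, minus strand): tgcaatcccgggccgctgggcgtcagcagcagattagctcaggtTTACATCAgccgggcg
Slc1a4 (chr11:20332684-20332743, minus strand): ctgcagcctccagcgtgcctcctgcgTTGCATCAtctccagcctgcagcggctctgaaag
Chac1 (chr2:119351023-119351082, plus strand): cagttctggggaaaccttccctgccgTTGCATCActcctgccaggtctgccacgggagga
Vldlr (chr19:27216794-27216853, plus strand): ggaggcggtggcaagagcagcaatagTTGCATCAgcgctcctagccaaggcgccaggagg
In all 6 genes shown the match stood on the strand opposite to the gene. Among the genes not shown this held for Nupr1 alone: Asns and Pycr1 had the match on the gene's strand and Slc7a11 on both strands. In Atf3, Fgf21, Slc1a4, Chac1 and Vldlr the same 8 letters, TTGCATCA, were found, while Trib3 held TTACATCA, 15 bases after its start.

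**Figure D1:**
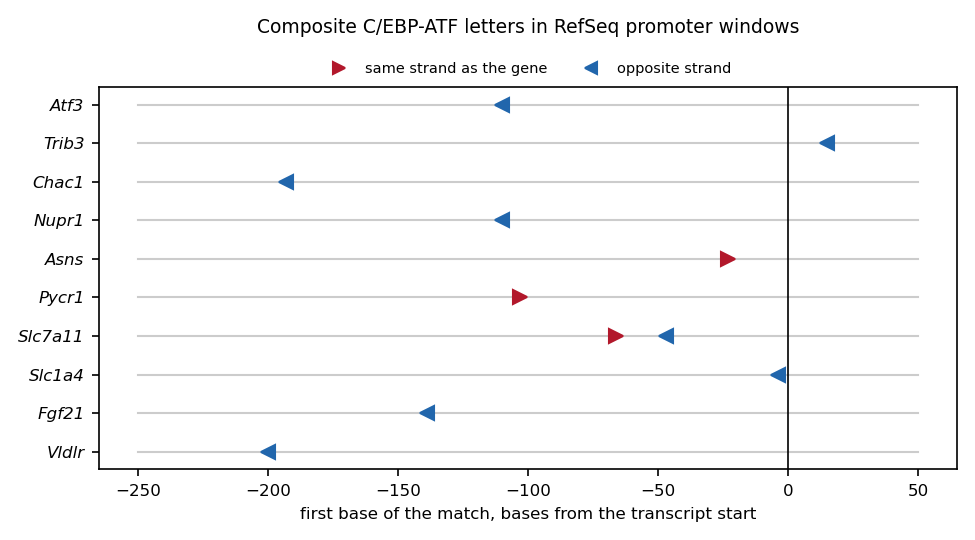
Position of each TGATGNAA match in the promoter windows of the 10 members that hold it, as the first base of the match counted from the transcript start; right-pointing marks lie on the gene's strand and left-pointing marks on the opposite strand. The matches run from 200 bases before the start in Vldlr to 15 bases after it in Trib3, and Slc7a11 has 2.

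Levels below are normalized reads recovered from the deposited values, given in the order of the replicate numbers. Library totals ran from 28.5 M reads (p53Mdm2 KO replicate 2; M stands for 1e6 reads) to 41.5 M (p53 KO replicate 2). A count of 0 allows up to 3 reads, which is 2.65 to 3.86 normalized reads, a limit that covers counting error only. A pair of libraries stood apart from the rest over all genes. Replicate 1 of p53 KO held the highest value of the 7 libraries for 28.1% of the tested genes and the lowest for 26.4%. Mdm2(C462A) KI replicate 2 held the highest for 21.2% and the lowest for 21.5%. Fibroblast markers were read in every library (Col1a1 at 187977 to 689145), but in p53 KO replicate 1 Thy1 was at 99.1, against 6592 to 37385 in the other 6 libraries, and Col1a2 at 3456, against 175050 to 547553. Summed markers of epithelium, leukocytes and endothelium stayed at or under 1261 normalized reads in every library. Krt5 and the muscle factor gene Myod1 were each at 0 in 6 of 7 libraries. Summed neural markers (Tubb3, Sox2, Nes and Gfap) were higher, at 2750 and 2977 in Mdm2(C462A) KI and 5018 and 13019 in p53Mdm2 KO. In p53 KO these neural sums were 1825, 12417 and 5609. Nes made up most of each sum (1312 to 12332), and Sox2 was highest in p53 KO replicate 1, at 493. In bulk RNA, a change in the share of one kind of cell and a change in RNA per cell cannot be told apart.

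Across the 33 genes, 1 library, Mdm2(C462A) KI replicate 2, held the top value for 30 of the 33, against 21.2% of all tested genes. The exceptions were Atf5 and Slc1a5, highest in p53Mdm2 KO replicate 1 (5.62% of all genes were highest there), and Psat1, highest in p53 KO replicate 2 (9.75%). For 0 members was the top value in Mdm2(C462A) KI replicate 1 (10.9% of all genes), p53Mdm2 KO replicate 2 (14.5%) or p53 KO replicates 1 (28.1%) and 3 (9.95%). The lowest value lay in p53 KO replicate 1 for 22 of the 33 (66.7%), against 26.4% of all genes. Another 5 were lowest in p53Mdm2 KO replicate 2, against 15.8% of all genes, 5 in p53 KO replicate 3, against 11.1%, and 1, Slc1a5, in p53 KO replicate 2, against 9.07%. For 0 members was the lowest value in Mdm2(C462A) KI replicates 1 (7.91% of all genes) and 2 (21.5%) or in p53Mdm2 KO replicate 1 (8.27%). Within the p53 KO group, replicate 1 was lowest for 27 members (81.8%), against 41.4% of all genes, and replicate 2 highest for 27, against 27.3%. As a median deviation from the p53 KO mean on the deposited log2-like scale, the members stood at 0.64 and 1.73 in Mdm2(C462A) KI replicates 1 and 2. They stood at 0.77 and -0.08 in p53Mdm2 KO replicates 1 and 2, and at -0.49, 0.45 and 0.03 in p53 KO replicates 1, 2 and 3. The order by library was thus not the order by genotype: p53Mdm2 KO replicate 1 lay beside Mdm2(C462A) KI replicate 1, and p53Mdm2 KO replicate 2 lay among the p53 KO libraries.

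**Figure D2:**
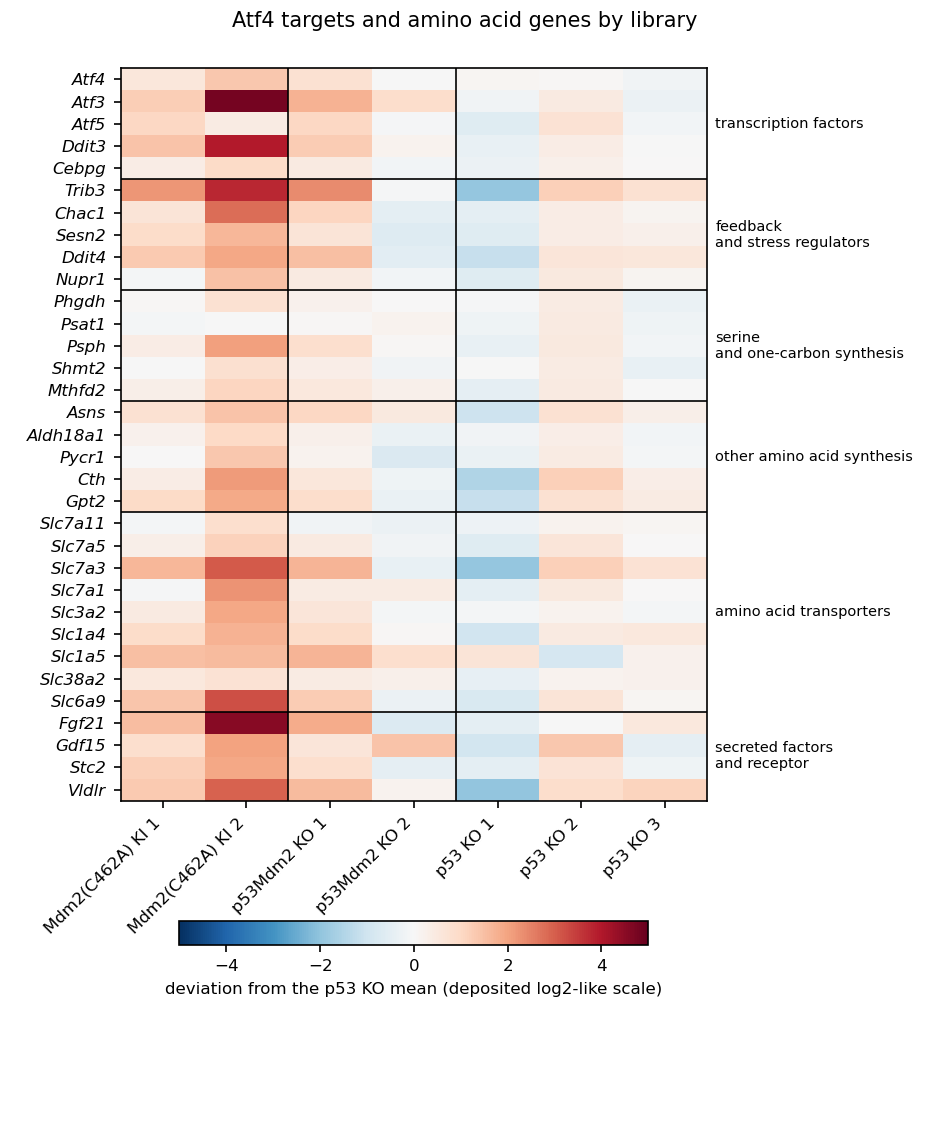
Deviation of each member from its p53 KO mean on the deposited log2-like scale, in the 7 libraries (columns) with members grouped by role (rows); red is above and blue below the p53 KO mean. The Mdm2(C462A) KI replicate 2 column is the darkest red, and p53 KO replicate 1 is blue for most members.

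The comparison of Mdm2(C462A) KI with p53 KO asks what the RING substitution does in cells without p53. Of the 33 members, 32 had a difference above 0, against 51.2% of the 16900 genes tested, and the exception was Psat1. Since the members were chosen with earlier results of these data known, this excess is a description and not independent evidence. The median log2 difference was 1.21, against 0.01 over all genes, and 20 members (60.6%) had a difference above 1, against 5.18% of all genes. In limma (fitted across all genes and libraries) 0 members and 0 genes (0%) passed the threshold of 0.05 on the Benjamini-Hochberg adjusted p, and the members' adjusted p ran from 0.44 to 0.95. At an unadjusted p under 0.05 there were 12 members on the higher side, against 4.98% of all genes, and 0 on the lower side, against 5.44%. Both Mdm2(C462A) KI libraries lay above all 3 p53 KO libraries for 19 members (57.6%), against 14.1% of all genes, and below them for 0, against 14.4%.

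These counts rested to a large degree on Mdm2(C462A) KI replicate 2. Replicate 2 exceeded replicate 1 for 32 members, against 48% of all genes. Without replicate 2 the median was 0.64, and without replicate 1 it was 1.73. A fit that leaves a group with 1 library takes the spread from the other groups, and the lone library is assumed to vary like them. For such fits no count at an unadjusted p is given. Without p53 KO replicate 1 there were 5 members at an unadjusted p under 0.05, against 5.15% of all genes on the higher side. Without p53 KO replicate 3 there were 7, in place of 12 with all libraries (where the share of all genes was 4.98%). Without both Mdm2(C462A) KI replicate 2 and p53 KO replicate 1 the median was 0.38. Mdm2(C462A) KI replicate 1 alone lay above all 3 p53 KO libraries for 20 of the 33 members (60.6%), against 24.6% of all genes, and replicate 2 for 31 (93.9%), against 30% of all genes.

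All 5 transcription factors were higher in Mdm2(C462A) KI than in p53 KO, against 51.2% of all genes. Their log2 differences ran from 0.68 to 3.01. Atf4 itself had 11452 and 19899 normalized reads in Mdm2(C462A) KI, 13302 and 7645 in p53Mdm2 KO, and 8401, 8172 and 6918 in p53 KO. Both Mdm2(C462A) KI libraries lay above the p53 KO range, by a log2 difference of 0.95 (SE 0.33, adjusted p = 0.45). Of the p53Mdm2 KO libraries, replicate 1 lay above that range and replicate 2 within it, and their difference from p53 KO was 0.37 (SE 0.33, adjusted p = 1).

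Ddit3 encodes CHOP, which Atf4 induces when stress persists. It had 3686 and 21317 normalized reads in Mdm2(C462A) KI, 3329 and 1530 in p53Mdm2 KO, and 1052, 1741 and 1348 in p53 KO. The Mdm2(C462A) KI libraries did not overlap either other group, and replicate 2 was 15.4 times the p53 KO mean while replicate 1 was 2.67 times. The log2 difference from p53 KO was 2.70 (SE 0.74, adjusted p = 0.44). Ddit3 shares exon bases with the methionyl-tRNA synthetase gene Mars on the opposite strand, and no strand setting is given. Mars itself had 4634 and 4550 normalized reads in Mdm2(C462A) KI and 5492 to 6593 in p53 KO.

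Atf3, a stress-induced repressor and activator, showed the largest log2 difference among the factors, 3.01 (SE 0.98, adjusted p = 0.44). It had 289 and 3680 normalized reads in Mdm2(C462A) KI, 426 and 222 in p53Mdm2 KO, and 98.2, 163 and 89.5 in p53 KO. All 4 libraries of the Mdm2-altered groups lay above the 3 p53 KO libraries. Cebpg, a dimer partner of Atf4, had 2510 and 3782 against 1571, 2280 and 1963 in p53 KO, a difference of 0.68. Atf5, a related factor under the same translational control, was at 8271 and 5346 in Mdm2(C462A) KI and at 2699, 6773 and 3687 in p53 KO, so the groups overlapped. It was the 1 member lower in Mdm2(C462A) KI replicate 2 than in replicate 1.

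The feedback and stress regulators were higher in 5 of 5 members, against 51.2% of all genes. Trib3, a pseudokinase that binds and restrains Atf4, had 3240 and 9460 normalized reads in Mdm2(C462A) KI, 3554 and 655 in p53Mdm2 KO, and 161, 1585 and 1156 in p53 KO. Mdm2(C462A) KI lay wholly above p53 KO (log2 difference 2.99, SE 1.14, adjusted p = 0.46). The p53 KO replicate 1 level was 0.117 times the mean of the other p53 KO libraries, and without that library the difference was 2.02, the smallest when any 1 library was left out.

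Chac1, an enzyme that breaks down glutathione, had 1136 and 5074 in Mdm2(C462A) KI, 1540 and 510 in p53Mdm2 KO, and 503, 947 and 785 in p53 KO. The groups Mdm2(C462A) KI and p53 KO did not overlap (1.71, SE 0.73, adjusted p = 0.49), and without Mdm2(C462A) KI replicate 2 the difference was 0.64.

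Sesn2 encodes a leucine-binding protein that restrains the growth kinase complex mTORC1, and is also a p53 target. It had 1349 and 2253 normalized reads in Mdm2(C462A) KI, 1090 and 439 in p53Mdm2 KO, and 445, 905 and 832 in p53 KO. Mdm2(C462A) KI lay above both other groups, by 1.30 over p53 KO (SE 0.49, adjusted p = 0.45). Ddit4, another inhibitor of mTORC1, had 1618 and 2534 in Mdm2(C462A) KI against 279, 973 and 949 in p53 KO, a difference of 1.63. Nupr1, a small stress-induced nuclear protein gene, had 1361 and 4012 against 934, 2027 and 1592, and the groups overlapped.

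**Figure D3:**
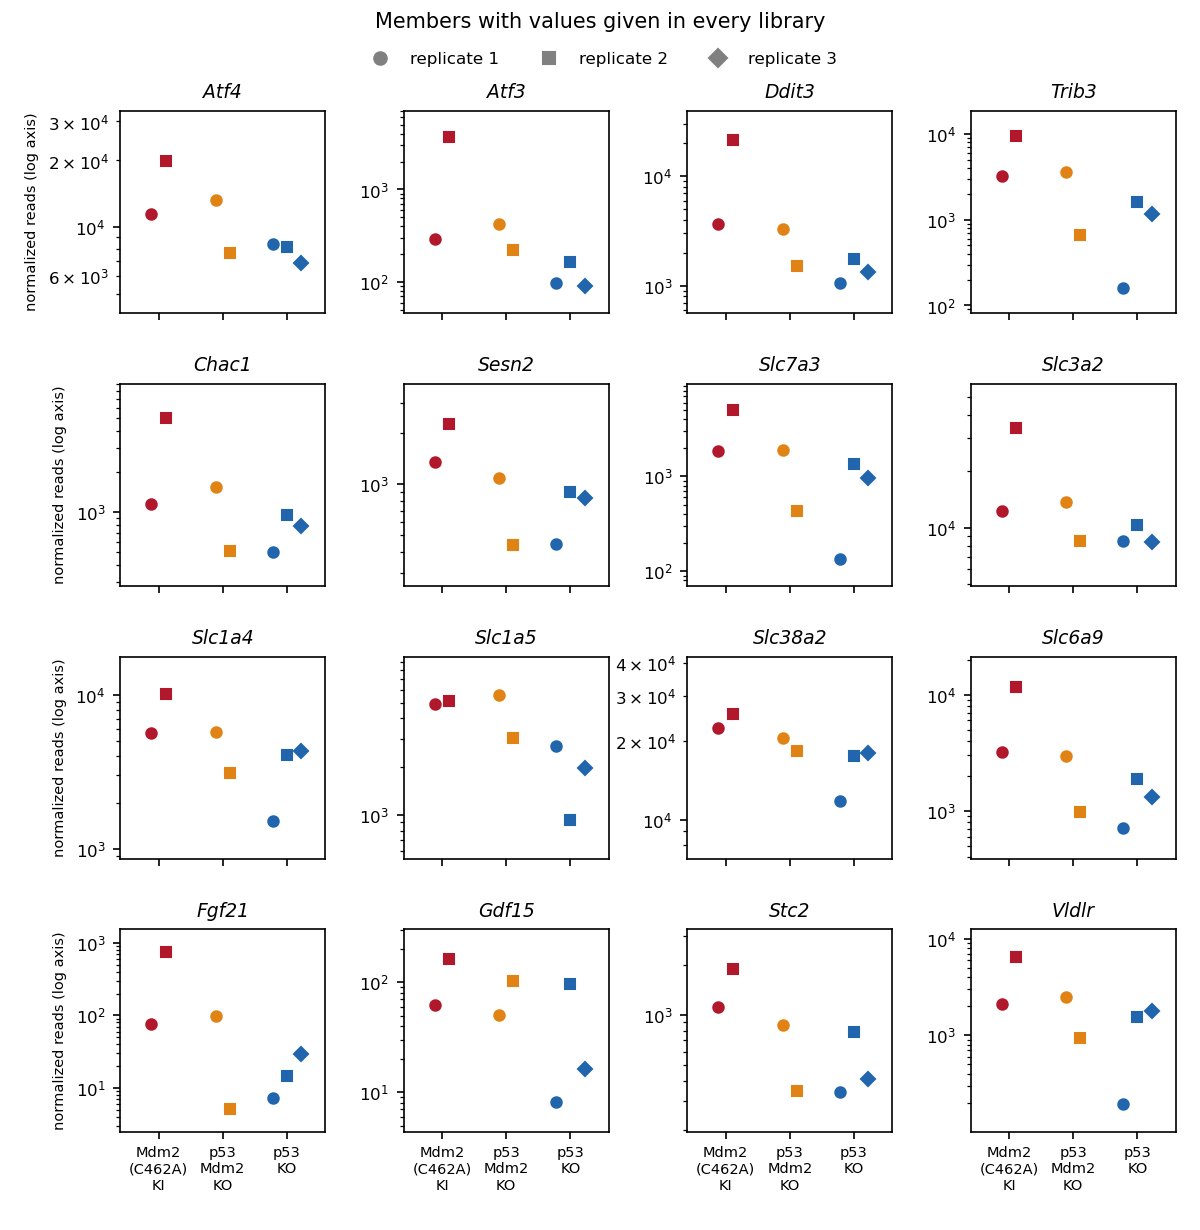
Normalized reads (log axis) of the 16 members whose values are given in every library, by group, with 1 mark per library and the shape giving the replicate. Mdm2(C462A) KI replicate 2 (square) is the highest mark in 15 panels; in the Slc1a5 panel both Mdm2(C462A) KI marks and the p53Mdm2 KO marks lie above all p53 KO marks.

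Enzymes of serine and one-carbon synthesis differed least, with a median log2 difference of 0.41. At an unadjusted p under 0.05 there were 0 of 5, against 4.98% of all genes on the higher side. In 5 genes a count of 0 cannot be told apart from that share. Psat1, the second enzyme of the serine pathway, had 10965 and 11561 normalized reads in Mdm2(C462A) KI and 10070, 15852 and 10077 in p53 KO, a difference of -0.06 (SE 0.24, adjusted p = 0.95). Phgdh, the first enzyme, had 12743 and 20765 against 11735, 16250 and 9644 (0.41). Psph, the last enzyme, had 1569 and 5039 against 936, 1699 and 1111 (1.21). Thus only replicate 2 of Mdm2(C462A) KI exceeded the p53 KO range for Phgdh and Psph, and for Psat1 neither library did. Psph shares exon bases with Cct6a on the opposite strand, so their reads are not separated with certainty.

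The mitochondrial one-carbon enzymes were like Phgdh. Shmt2, which takes a carbon from serine, was at 7067 and 12466 in Mdm2(C462A) KI against 6984, 9353 and 5438 in p53 KO, and Mthfd2, the next step, at 4421 and 7567 against 2647, 4920 and 3596. In both, replicate 2 alone lay above the p53 KO range.

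The other synthesis enzymes were higher in 5 of 5 members, from 0.61 to 1.42, against 51.2% of all genes. At an unadjusted p under 0.05 there were 0, which in 5 genes cannot be told apart from the 4.98% of all genes. Asns, which makes asparagine, had 5698 and 8924 normalized reads in Mdm2(C462A) KI and 1619, 5629 and 4093 in p53 KO, groups that did not overlap by a narrow margin. Gpt2, a mitochondrial alanine aminotransferase, had 2677 and 5043 against 594, 2321 and 1803 and also did not overlap. The proline enzymes Aldh18a1 (6774 and 11728 against 5184, 7284 and 5266) and Pycr1 (749 and 1871 against 579, 989 and 682) exceeded the p53 KO range in replicate 2 alone. So did Cth, which releases cysteine from cystathionine, with 622 and 2185 against 155, 1111 and 614.

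Amino acid transporters were higher in 9 of 9 members, against 51.2% of all genes, with a median log2 difference of 1.18, and 5 had an unadjusted p under 0.05, against 4.98% of all genes on the higher side. Slc1a5, the glutamine carrier, differed from the general order of libraries. It had 4923 and 5115 normalized reads in Mdm2(C462A) KI, 5563 and 3041 in p53Mdm2 KO, and 2696, 936 and 1958 in p53 KO. Its Mdm2(C462A) KI libraries were close to each other, and all 4 libraries with altered Mdm2 lay above the p53 KO range (1.55, SE 0.47, adjusted p = 0.44 for Mdm2(C462A) KI). Unlike most members, it was highest of the p53 KO libraries in replicate 1.

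Slc6a9, the glycine carrier, had 3193 and 11579 normalized reads in Mdm2(C462A) KI, 2963 and 969 in p53Mdm2 KO, and 712, 1878 and 1308 in p53 KO (2.32, SE 0.73, adjusted p = 0.44). Mdm2(C462A) KI lay above both other groups. Slc6a9 shares exon bases with Ccdc24 on the opposite strand, which was itself highest in Mdm2(C462A) KI replicate 2, at 859 against 180 to 434 in the other libraries.

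Slc3a2, the heavy chain that escorts several carriers to the membrane, had 12237 and 34187 in Mdm2(C462A) KI, 13684 and 8507 in p53Mdm2 KO, and 8447, 10310 and 8414 in p53 KO (1.18, SE 0.45, adjusted p = 0.46). Its partner Slc7a5, a leucine carrier, had 13355 and 24745 against 7213, 16501 and 11128 in p53 KO and overlapped. The cystine carrier Slc7a11, a target of Nrf2 as well as Atf4, had 3313 and 6370 against 3037, 4014 and 3802, the smallest difference among the transporters (0.35). Only for Slc3a2, of this escort and its partners, did the groups not overlap.

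The neutral amino acid carrier Slc1a4 had 5618 and 10024 in Mdm2(C462A) KI, 5723 and 3118 in p53Mdm2 KO, and 1527, 4093 and 4325 in p53 KO (1.32, SE 0.54, adjusted p = 0.48). Slc38a2, another neutral carrier, had 22515 and 25544, 20542 and 18360, and 11749, 17596 and 17998 in the same groups (0.63, SE 0.24, adjusted p = 0.46). Slc38a2 was the 1 member in which the 3 groups did not overlap in any pair, with Mdm2(C462A) KI highest and p53 KO lowest. The steps between neighbouring groups were 0.30 between Mdm2(C462A) KI and p53Mdm2 KO and 0.33 between p53Mdm2 KO and p53 KO, each with adjusted p = 1.

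The cationic carrier Slc7a3 had 1836 and 4960 in Mdm2(C462A) KI, 1881 and 435 in p53Mdm2 KO, and 135, 1337 and 965 in p53 KO (2.36, SE 1.08, adjusted p = 0.51). Its relative Slc7a1 had 5027 and 24886 in Mdm2(C462A) KI, against 3746, 7330 and 5323 in p53 KO. For Slc7a1, replicate 1 of Mdm2(C462A) KI lay within the p53 KO range and replicate 2 was 4.55 times the p53 KO mean.

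Among the secreted factors and the receptor, 4 of 4 were higher, against 51.2% of all genes. Fgf21, a stress hormone, had 77.2 and 744 normalized reads in Mdm2(C462A) KI, 98.3 and 5.15 in p53Mdm2 KO, and 7.27, 14.9 and 29.1 in p53 KO. Mdm2(C462A) KI lay above the p53 KO range (3.05, SE 1.05, adjusted p = 0.45), and the p53Mdm2 KO libraries lay on either side of it, 19.1-fold apart. The lowest of these values rested on 4 reads. Stc2, a secreted glycoprotein gene, had 1114 and 1888 in Mdm2(C462A) KI, 874 and 348 in p53Mdm2 KO, and 343, 792 and 411 in p53 KO (1.55, SE 0.52, adjusted p = 0.44). Mdm2(C462A) KI did not overlap either other group.

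Vldlr, a lipoprotein receptor gene, had 2090 and 6525 in Mdm2(C462A) KI, 2497 and 942 in p53Mdm2 KO, and 193, 1541 and 1786 in p53 KO (2.14, SE 1.04, adjusted p = 0.54). Without p53 KO replicate 1, whose level was 0.116 times that of the other p53 KO libraries, its difference was 1.15. Gdf15, a secreted stress factor that p53 also induces, had 62.2 and 163 in Mdm2(C462A) KI, 51.0 and 103 in p53Mdm2 KO, and 8.18, 97.5 and 16.2 in p53 KO. The groups overlapped for Gdf15, and it did not follow the order of libraries seen for Fgf21, Stc2 and Vldlr.

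**Figure D4:**
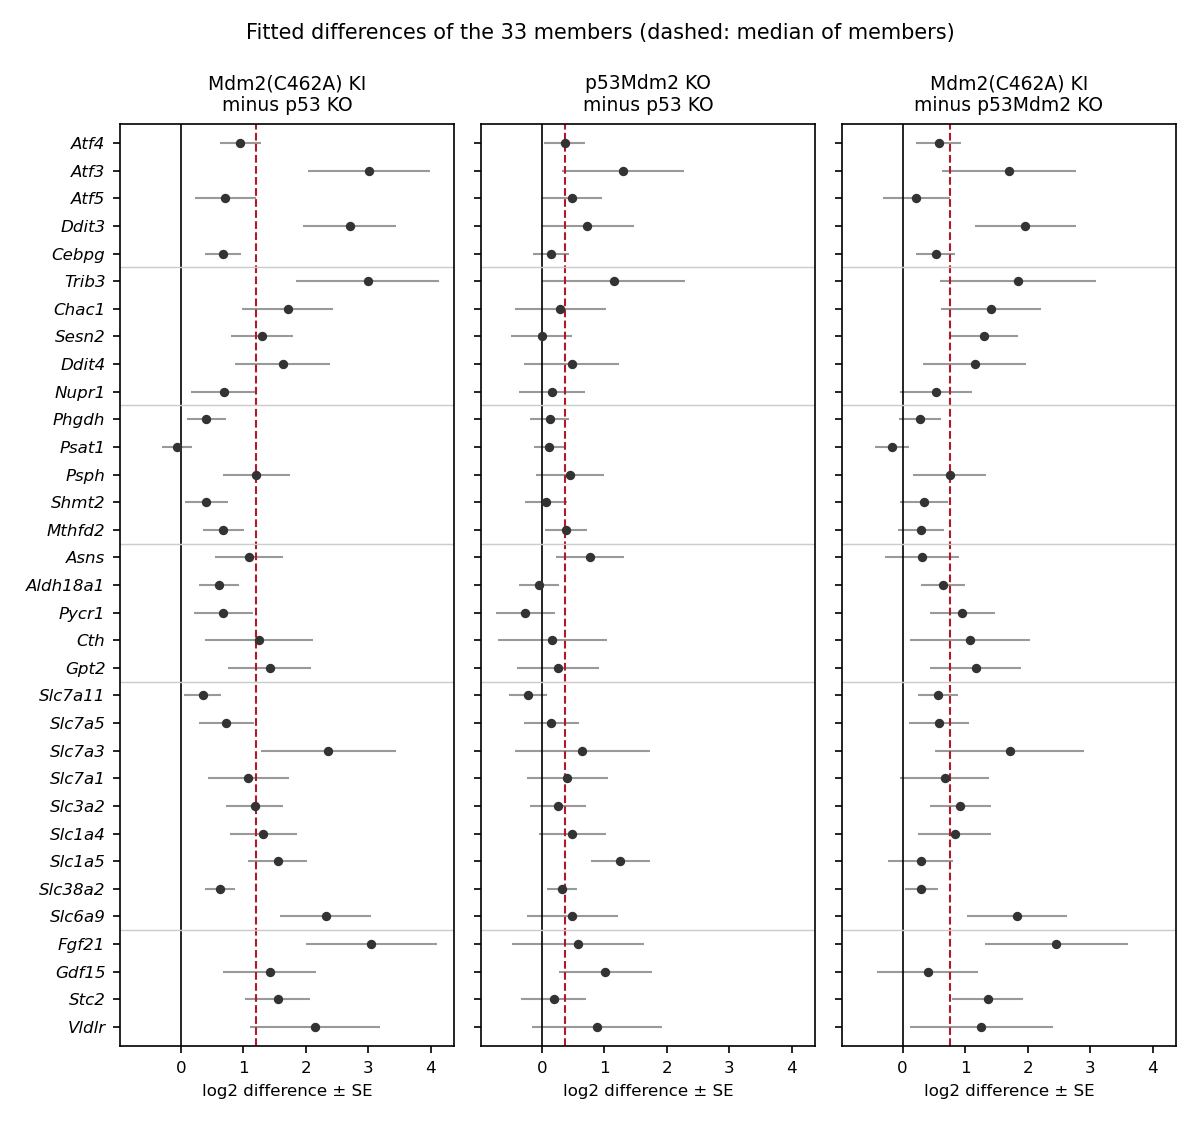
Fitted log2 difference with its SE for each member in the 3 comparisons, in the same row order as the roles in the text; the dashed line is the median of the members (1.21, 0.37 and 0.75 from left to right). In the left panel 32 of 33 points lie to the right of 0, and error bars are widest for Trib3, Slc7a3, Fgf21 and Vldlr.

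Removal of Mdm2 from cells that lack p53 was examined by setting p53Mdm2 KO against the same 3 p53 KO libraries. Of the 33 members, 29 had a difference above 0, against 48.2% of all genes, and the median was 0.37, against -0.01. The 4 below 0 were Sesn2, Aldh18a1, Pycr1 and Slc7a11. By limma 0 members and 0 genes (0%) were called, with every member at adjusted p = 1. At an unadjusted p under 0.05 there was 1 member, Slc1a5 (3.03%), against 1.51% of all genes on the higher side, and 0 on the lower side, against 1.49%. The p53Mdm2 KO libraries lay wholly above for 3 members (9.09%), against 8.99% of all genes, a share near the background, and wholly below for 0, against 9.2%. A difference above 1 was found for 4 members (Atf3, Trib3, Slc1a5 and Gdf15), against 2.58% of all genes.

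Those 3 were Slc1a5, with a log2 difference of 1.26 (SE 0.47, adjusted p = 1), Atf3 with 1.30 (SE 0.98) and Slc38a2 with 0.33 (SE 0.24). The p53Mdm2 KO libraries differed widely from each other: replicate 1 exceeded replicate 2 for 30 of the 33 members (90.9%), against 51% of all genes. The ratio of replicate 1 to replicate 2 was 5.42 for Trib3, 4.32 for Slc7a3 and 4.25 for Ddit4. It was below 1 for Psat1, Slc7a1 and Gdf15. Replicate 1 lay above all p53 KO libraries for 22 members, against 22% of all genes, and replicate 2 for 4, against 23.9%. Without replicate 1 the members' median was -0.08 and 13 members were above 0, and without replicate 2 the median was 0.77. Without p53 KO replicate 1 the median was 0.06, and without p53 KO replicate 2 it was 0.61. The count at an unadjusted p under 0.05 was 0 without p53 KO replicate 3. Counts of 0 or 1 in 33 members cannot be told apart from the 1.51% of all genes found with all libraries. Other large differences were those of Trib3 (1.15, SE 1.14), Gdf15 (1.02, SE 0.74) and Vldlr (0.88, SE 1.04), each about the size of its error. The Vldlr difference was -0.11 without p53 KO replicate 1, and the Trib3 difference was -0.05 without p53Mdm2 KO replicate 1.

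Mdm2(C462A) KI was also set against p53Mdm2 KO, which asks whether the substitution differs from loss of the protein. Of the 33 members, 32 had a difference above 0, against 51.7% of all genes, with a median of 0.75, against 0.01, and Psat1 was again the exception. By limma 0 members and 0 genes (0%) were called, and each member had adjusted p = 1. At an unadjusted p under 0.05 there were 2 members, Ddit3 (1.96, SE 0.81) and Sesn2 (1.30, SE 0.54), a share of 6.06% against 1.2% of all genes on the higher side, and 0 on the lower side, against 1.78%. The groups did not overlap on the higher side for 7 members (21.2%), against 15.8% of all genes: Ddit3, Sesn2, Gpt2, Slc7a11, Slc38a2, Slc6a9 and Stc2. On the lower side this held for Psat1 (3.03%), against 17.1% of all genes. A difference above 1 was found for 13 members (39.4%), against 3.4% of all genes.

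The largest log2 differences in this comparison were those of Fgf21 (2.46, SE 1.15), Ddit3, Trib3 (1.84, SE 1.25), Slc6a9 (1.83, SE 0.80) and Slc7a3 (1.71, SE 1.19). The median was 0.23 without Mdm2(C462A) KI replicate 2, 1.47 without its replicate 1, 1.15 without p53Mdm2 KO replicate 1 and 0.50 without p53Mdm2 KO replicate 2. The count at an unadjusted p under 0.05 was 2 with all libraries, against 1.2% of all genes on the higher side. It was 0 without p53 KO replicate 3 and 1 without p53 KO replicate 2. Counts of 0 or 1 in 33 members cannot be told apart from a share of 1.2%. Between the first replicates of the 2 groups, p53Mdm2 KO was the higher for 25 of the 33 members (75.8%), against 48.7% of all genes. For most members their ratio was close to 1: Mdm2(C462A) KI replicate 1 over p53Mdm2 KO replicate 1 was 0.861 for Atf4, 0.912 for Trib3 and 1.11 for Ddit3, and ran from 0.678 for Atf3 to 1.27 for Stc2.

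Other genes of the pathway were counted in lists that hold no member, though Ppp1r15a, Slc7a6 and Nars each stand in more than 1 of these lists. Over all tested genes, 51.2% were higher in Mdm2(C462A) KI than in p53 KO, with 4.98% higher at an unadjusted p under 0.05. In p53Mdm2 KO 48.2% were higher than in p53 KO. Of 16 other Atf4 targets, 14 were higher in Mdm2(C462A) KI than in p53 KO (median 1.04), with 5 at an unadjusted p under 0.05 and 0 at an adjusted one. Herpud1, a gene of ER-associated degradation, had 3453 and 33463 normalized reads in Mdm2(C462A) KI, against 2243, 2702 and 2632 in p53 KO. Adm2, a secreted peptide gene, had 226 and 1042 against 6.36, 195 and 111. In p53Mdm2 KO 11 of the 16 were above p53 KO (median 0.22), with Adm2 at 361 and 55.4 and the growth factor gene Vegfa at 6582 and 3440, against 1507, 3767 and 2829 in p53 KO. Thus the replicate gap seen among the members recurred in Adm2 and Herpud1.

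The genes upstream of Atf4 did not share that pattern as a list. Of 14 genes for eIF2 kinases, eIF2 phosphatase subunits and eIF2B, 6 were higher in Mdm2(C462A) KI (median -0.03), and 7 in p53Mdm2 KO (median -0.01). The kinase genes Eif2ak1 and Eif2ak4 ranged from 1662 to 2117 and from 1509 to 2112 over all 7 libraries. The exception was Ppp1r15a, a phosphatase subunit that Atf4 signalling induces in a feedback loop. It had 1902 and 11089 normalized reads in Mdm2(C462A) KI, 2024 and 1423 in p53Mdm2 KO, and 1572, 1458 and 1133 in p53 KO (1.73, SE 0.68, adjusted p = 0.47). Impact, an inhibitor of the amino acid sensing kinase, was at 8249 and 5107 against 3674, 4939 and 5296 (0.50). In p53Mdm2 KO the largest differences of this list were those of Eif2ak2, the kinase that senses double-stranded RNA (-0.77), and of Eif2ak3, the ER kinase (-0.46).

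Genes of amino acid handling outside the membership were mixed. Of 20 tested enzymes, 9 were higher in Mdm2(C462A) KI than in p53 KO (median -0.06) and 11 in p53Mdm2 KO (median 0.03). The larger differences were those of low genes such as Gldc, of glycine cleavage, at 46.1 and 92.6 in Mdm2(C462A) KI against 0, 35.3 and 22.7 in p53 KO. Of 17 tested transporters, 11 were higher in Mdm2(C462A) KI (median 0.72) and 9 in p53Mdm2 KO (median 0.01). Slc16a10, an aromatic amino acid carrier, had 798 and 1173 in Mdm2(C462A) KI, 504 and 594 in p53Mdm2 KO, and 92.7, 378 and 287 in p53 KO (2.05, SE 0.54, adjusted p = 0.44). Slc6a15, a neutral carrier, had 779 and 359, 382 and 537, and 5.45, 283 and 128 in the same groups. In both carriers all 4 libraries with altered Mdm2 lay above the p53 KO range.

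Of 20 cytosolic aminoacyl-tRNA synthetases, which load amino acids onto tRNA, 14 were higher in Mdm2(C462A) KI (median 0.34), 16 in p53Mdm2 KO (median 0.09). Sars had 12344 and 18761 normalized reads in Mdm2(C462A) KI against 6906, 10006 and 7710 in p53 KO (0.91, SE 0.29, adjusted p = 0.44), and Wars 3036 and 8034 against 2104, 3650 and 2512.

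ER chaperones and other Atf6 and Xbp1 targets, which belong to the other arms of the unfolded protein response, were higher in Mdm2(C462A) KI than in p53 KO for 16 of 16 genes (median 1.24, 3 at an unadjusted and 0 at an adjusted p under 0.05), and in p53Mdm2 KO for 13 of 16 (median 0.12). The list separated the replicates more than the members did, with a median deviation of 0.18 in replicate 1 and 2.20 in replicate 2. Hspa5, the main ER chaperone, had 59702 and 358998 normalized reads in Mdm2(C462A) KI, 62451 and 55086 in p53Mdm2 KO, and 41535, 54603 and 37776 in p53 KO. Sdf2l1, a co-chaperone gene, had 889 and 8887 in Mdm2(C462A) KI against 889, 951 and 615 in p53 KO. In Mdm2(C462A) KI replicate 1 and p53Mdm2 KO replicate 1, the libraries where the members stood at 0.64 and 0.77, the chaperone list stood at 0.18 and 0.30.

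**Figure D5:**
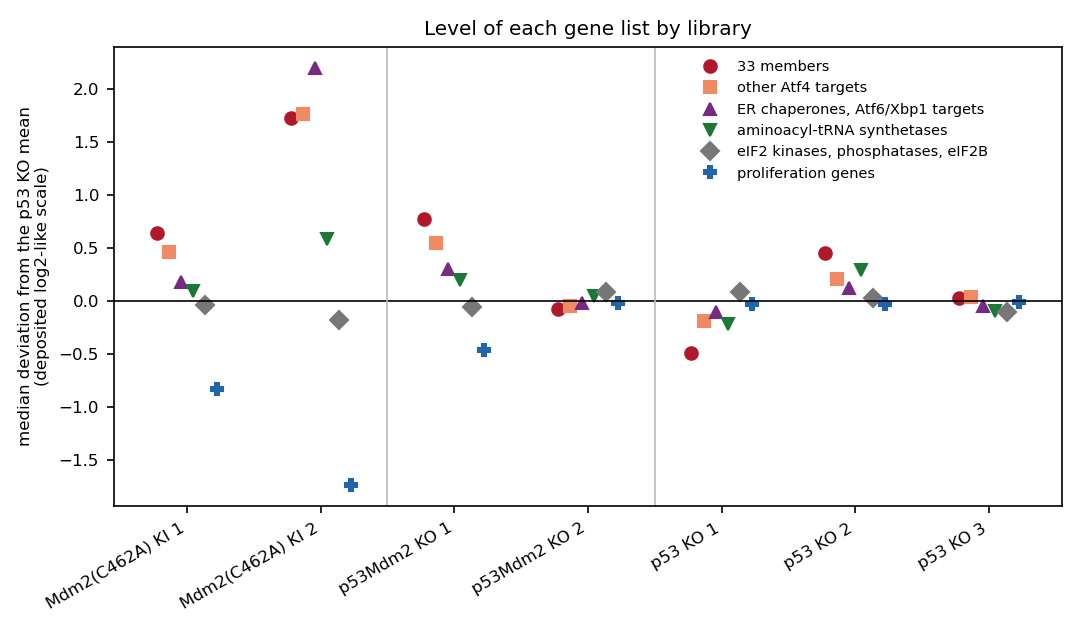
Median deviation from the p53 KO mean (deposited log2-like scale) of 6 gene lists in each of the 7 libraries, 1 mark per list. The 33 members and the other Atf4 targets order the libraries alike. The ER list has the same order except that p53Mdm2 KO replicate 2 (-0.02) stands above p53 KO replicate 3 (-0.05). It is far from 0 in Mdm2(C462A) KI replicate 2 alone (2.20), and the proliferation list runs to -1.74 in that library.

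Other measures also differed between the libraries, and not all of them followed the members. Of 10 proliferation genes, 10 were lower in Mdm2(C462A) KI than in p53 KO (median -1.27). All were at an unadjusted p under 0.05 (adjusted p = 0.44), against 5.44% of all genes on the lower side. In p53Mdm2 KO 9 of 10 were lower than in p53 KO (median -0.23). Mki67 had 8835 and 3053 normalized reads in Mdm2(C462A) KI, 9711 and 12160 in p53Mdm2 KO, and 13744, 17435 and 15832 in p53 KO. The list's summed level was 38978 and 18643 in Mdm2(C462A) KI, 46367 and 61647 in p53Mdm2 KO, and 68350, 65162 and 63927 in p53 KO. Within the Mdm2(C462A) KI and p53Mdm2 KO groups, the library with the higher Atf4 level had the lower sum, while in p53 KO the order of the sums was that of the Atf4 levels. Summed mesothelial markers (Msln, Upk3b, Wt1 and Lrrn4; 4 of 4 tested, none at 0) were at 2547 and 31419 in Mdm2(C462A) KI, 12734 and 1504 in p53Mdm2 KO, and 10314, 1424 and 2396 in p53 KO. They were high in Mdm2(C462A) KI replicate 2 and p53Mdm2 KO replicate 1, the libraries with the highest median deviation of the members, and also in p53 KO replicate 1, where most members were lowest. Among 4 muscle markers, Myod1, Myog and Myh3 did not exceed 7.02 in any library, while Des had 195 and 2388 in Mdm2(C462A) KI, 1839 and 139 in p53Mdm2 KO, and 163, 885 and 928 in p53 KO. Fibroblast markers summed to 1472454 and 992383 in Mdm2(C462A) KI, 1418812 and 947824 in p53Mdm2 KO, and 1010752, 1707425 and 2136497 in p53 KO. The part of any of these in the results on the members was not tested.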

How the data were processed

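The deposited table gives 1 log2 value per gene and library, in which the values themselves show a variance-stabilizing transformation. Reads were single, 50 bp, from a TruSeq RNA kit, demultiplexed with CASAVA 1.8.2, per the labels' protocols. Bowtie2 2.1.0, DESeq 1.14.0 and build mm9 are named, without roles, in the submitters' processing notes. The sources used here name no counting tool, annotation or strand setting.

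A gene without reads has the value 3.36. Inverting the transformation from that value gave normalized reads, and 100% of values above 0 were whole reads within 0.05. Limma 3.58.1 (R 4.3.3) was fitted to the deposited values of all 7 libraries, with group means and a mean-variance trend, for genes with a mean of at least 10 normalized reads. P-values were two-sided with Benjamini-Hochberg adjustment over 16900 genes. Since the values are logarithmic, no count model was run, and voom was an alternative. The fit was also run on simulated data, but the sizes of change it recovers are not given here. A count of 0 called genes therefore does not show that genes were unchanged. Differences understate changes of low genes. Exon overlaps came from GENCODE vM21, by gene name.

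Groups and replicates came from the sample titles. The members and lists were chosen with earlier results of these data known. Values in every library are given for Atf4, members at an unadjusted p under 0.05 in any comparison, and the largest differences (8 for Mdm2(C462A) KI against p53 KO, 5 in each other comparison). Of each pathway list, the 2 largest differences guided the examples. Alternatives covered filter, scale, scaling, variance model, samples fitted, a replicate block and left-out libraries.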

Additional observations from a re-analysis of the deposited data

How the results depend on the processing

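No replicate number is tied to an animal or batch by the labels, and the deviations of same-numbered libraries correlated between -0.16 and 0.20, so the numbers were not taken to pair the samples. A replicate block left 3 members (Ddit3, Slc1a5 and Slc38a2) at an unadjusted p under 0.05 in Mdm2(C462A) KI against p53 KO. Those 3 stood in place of 12, and the share of all genes on the higher side was 3.96% in place of 4.98%. Against p53Mdm2 KO the block left 0 members in place of 2. That last count was also 0 with upper-quartile scaling, without the mean-variance trend, by voom, and with only the groups compared.

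Leaving out 1 library at a time, the members' median ran from 0.64 to 1.73 for Mdm2(C462A) KI against p53 KO, from -0.08 to 0.77 for p53Mdm2 KO against p53 KO, and from 0.23 to 1.47 for Mdm2(C462A) KI against p53Mdm2 KO. Members above 0 ran from 28 to 33, from 13 to 32 and from 23 to 32 in the same order, and members at an unadjusted p under 0.05 from 1 to 19, from 0 to 1 and from 0 to 14. Against p53 KO, in p53Mdm2 KO, Atf4 ran from -0.03 to 0.77, Trib3 from -0.05 to 2.35 and Vldlr from -0.11 to 1.58.

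With p53 KO replicate 1 and Mdm2(C462A) KI replicate 2 both left out, the median was 0.38 for Mdm2(C462A) KI against p53 KO. Members at an unadjusted p under 0.05 are not counted for Mdm2(C462A) KI, which then held 1 library. For p53Mdm2 KO against p53 KO there were then 2 such members, Atf3 and Slc1a5, the Vldlr difference was -0.11, and 1 gene passed the adjusted threshold (Ifi202b, no member and named after its value was seen). In every other alternative run, 0 genes passed. With the motif TGACGTCA in place of TGATGNAA, 0 members held it. The causes of these shifts were not tested. Recovered depth limits Fgf21 and Gdf15, the members with the fewest reads.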
